A study of Mus musculus with 8 samples.

Results

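Chromosome 19, the smallest mouse autosome, was examined in the open-chromatin lists of mouse embryonic stem cells that had lost Ubc9 and of their controls. Every region on chromosome 19 in the Ubc9-depleted list (1187 of 48730 regions) and in the Ubc9-control list (919 of 46847) was taken, 2106 of the 95577 regions of the pair and of the 209105 in all 4 lists. A region was called shared when it overlapped a region of the other list by at least 1 bp, and otherwise depleted-only or control-only. Chromosome 19 was selected on these counts, for its high ratio of depleted-only to control-only regions, so they are given below as a description and test nothing.

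Accessible DNA was mapped by ATAC-seq, in which a transposase cuts and tags open chromatin. The depleted cells were of the v6.5 line and lost Ubc9, through a TET-OFF system, over 72 hours with doxycycline. The controls, also of the v6.5 line, carry the label Ubc9-control. The treatment note is the same for every sample and does not say whether control or H1 cells also received doxycycline, and if they did not, drug and depletion cannot be told apart. The reference cells, taken from an earlier publication, were a knockout of 3 linker histone genes, H1.2-/-H1.3-/-H1.4-/-, beside H1 wild-type cells. All 4 groups had been in 2i/LIF medium for 4 passages, with 2 replicates each. Each group has 1 deposited list made from both replicates, so the spread between replicates is unknown, no p-value is given, and intervals (exact, 95%) cover counting error only. How deeply each library was sequenced is unknown. Of 12 stem cell marker genes, 9 had a region at a gene end in each of the 4 lists, while Pou5f1, Esrrb and Lin28a had none in any. Of 10 fibroblast and feeder cell markers, 1 had one in the depleted list, 2 in the control list and 1 in each H1 list.

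Ubc9 is the only known conjugating enzyme of the SUMO pathway, which attaches the small protein SUMO to many chromatin proteins, among them linker histones, repressors and transcription factors. SUMO is best known on chromatin for its part in silencing. Chromosome 19 has a gene-dense end next to the centromere and carries clusters of multicopy genes, among them olfactory receptors, Ms4a membrane proteins, Cyp2c cytochromes, Slc22a transporters and acid lipases.

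Promoters whose region was in 1 list only show the kind of sequence at which the lists parted, and the 6 printed here were chosen after their values were seen, as genes described below. Sequences are from RefSeq (GRCm38.p6, the same assembly as mm10), and each runs 5′ to 3′ along the strand of its gene from 250 bases before to 50 after the start. Rce1 (chr19:4625596-4625895, minus strand), Rela (chr19:5637291-5637590, plus), Pola2 (chr19:5964157-5964456, minus) and Tdrd1 (chr19:56825959-56826258, plus) overlapped depleted-only regions. Dkk1 (chr19:30549447-30549746, minus) and Ifit2 (chr19:34550444-34550743, plus) overlapped control-only regions. Capitals mark matches, on either strand, to 8 motifs: the GC box GGGCGG, the E-box CACGTG, the CCAAT box CCAAT, the TATA box TATAAA, the ETS motif CCGGAAGT, the cyclic-AMP element TGACGTCA, the AP-1 motif TGACTCA and the octamer ATTTGCAT. No motif lies within another.
Rce1: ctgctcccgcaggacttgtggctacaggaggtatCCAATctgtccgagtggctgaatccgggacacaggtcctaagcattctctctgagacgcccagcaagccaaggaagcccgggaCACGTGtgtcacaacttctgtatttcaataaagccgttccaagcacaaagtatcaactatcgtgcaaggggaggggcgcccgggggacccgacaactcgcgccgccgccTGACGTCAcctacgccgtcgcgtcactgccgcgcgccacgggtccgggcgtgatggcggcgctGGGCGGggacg
Rela: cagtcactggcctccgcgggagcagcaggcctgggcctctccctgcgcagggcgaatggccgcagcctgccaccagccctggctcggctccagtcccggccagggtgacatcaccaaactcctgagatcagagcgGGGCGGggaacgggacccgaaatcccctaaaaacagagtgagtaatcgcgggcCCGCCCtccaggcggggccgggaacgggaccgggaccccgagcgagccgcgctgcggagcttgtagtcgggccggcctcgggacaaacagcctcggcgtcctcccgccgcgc
Pola2: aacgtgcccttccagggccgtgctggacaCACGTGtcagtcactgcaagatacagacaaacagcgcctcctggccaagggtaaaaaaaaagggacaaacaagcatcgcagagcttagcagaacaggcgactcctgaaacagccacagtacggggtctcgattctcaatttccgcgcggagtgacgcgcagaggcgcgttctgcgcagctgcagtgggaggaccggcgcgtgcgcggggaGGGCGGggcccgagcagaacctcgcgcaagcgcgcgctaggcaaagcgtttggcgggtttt
Tdrd1: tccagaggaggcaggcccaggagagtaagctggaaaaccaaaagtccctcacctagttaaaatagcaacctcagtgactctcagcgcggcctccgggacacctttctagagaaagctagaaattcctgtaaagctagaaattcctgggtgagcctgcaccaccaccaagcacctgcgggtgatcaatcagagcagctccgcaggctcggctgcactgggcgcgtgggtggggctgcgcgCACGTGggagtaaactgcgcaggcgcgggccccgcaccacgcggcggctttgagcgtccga
Dkk1: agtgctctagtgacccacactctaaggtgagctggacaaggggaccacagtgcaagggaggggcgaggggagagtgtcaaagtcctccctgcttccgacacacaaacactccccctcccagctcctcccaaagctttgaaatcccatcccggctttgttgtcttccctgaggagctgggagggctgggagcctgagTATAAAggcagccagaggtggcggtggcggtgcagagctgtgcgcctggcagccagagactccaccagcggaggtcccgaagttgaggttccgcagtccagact
Ifit2: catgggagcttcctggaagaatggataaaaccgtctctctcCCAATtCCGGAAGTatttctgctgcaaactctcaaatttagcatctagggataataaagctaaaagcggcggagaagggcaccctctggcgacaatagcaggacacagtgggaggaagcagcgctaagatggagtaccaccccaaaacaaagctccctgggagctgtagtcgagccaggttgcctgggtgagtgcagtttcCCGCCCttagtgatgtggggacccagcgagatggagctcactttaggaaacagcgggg

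Depleted-only promoters were rich in C and G, as were promoters open in both lists. The median GC content was 64.0% with 24 CpG dinucleotides in the 47 promoter windows (41 genes) that met a depleted-only region and no control region and 63.3% with 23 in 389 windows open in both lists. It was 53.3% with 9 CpG in 19 control-only windows (18 genes) and 47.3% with 4 in 575 windows open in neither. The GC box was present in 68.1% of depleted-only, 57.9% of control-only, 69.7% of doubly open and 17.7% of closed windows, against 36.0% of all 31396 autosomal windows. E-boxes were in 14.9% of the depleted-only windows of chromosome 19 (7 windows of 5 genes), 11.2% of the depleted-only windows of all autosomes and 7.14% of all autosomal windows. CCAAT was in 21.3%, 29.1% and 37.3%. The ETS motif was in 0 of 47 depleted-only windows and 4 of 19 control-only windows (21.1%), against 3.95% of all. Of these 4 windows, 2 lie over the same region on opposite strands. Over all autosomes the order was the other way, with the ETS motif in 5.89% of depleted-only and 3.06% of control-only windows. Across all autosomes the same classes had similar base composition, 63.3% GC in 1035 depleted-only and 54.7% in 751 control-only windows. These matches describe the letters and do not show binding.

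Chromosome 19 held 549 depleted-only and 277 control-only regions, a ratio of 1.98. This is the value on which the chromosome was picked, and the other 18 autosomes lay between 0.863 (chromosome 2) and 1.27 (chromosome 14). By unshared share, the control list lay outside the range of the other autosomes and the depleted list within it. Each share depends on both lists, so it does not by itself say which list departs. Of control regions on chromosome 19, 30.1% (interval 27.2 to 33.2) had no partner, against 34.7% to 47.3% on the other autosomes and 43.3% over the whole list. Of depleted regions, 46.3% (43.4 to 49.1) had none, within the 38.9% to 50.7% of the other autosomes and beside 45.6% over the whole list. The 638 shared regions of the depleted list met 642 of the control list. Total counts differed in the same way, with 1.29 depleted regions per control region on chromosome 19 and 0.938 to 1.12 on the other autosomes. The sex chromosomes were left out of these ranges. Their ratios of depleted-only to control-only regions were 1.41 on X and 4.57 on Y, the latter above chromosome 19. Their total counts stood at 1.20 and 2.16 depleted regions per control region.

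**Figure D1:**
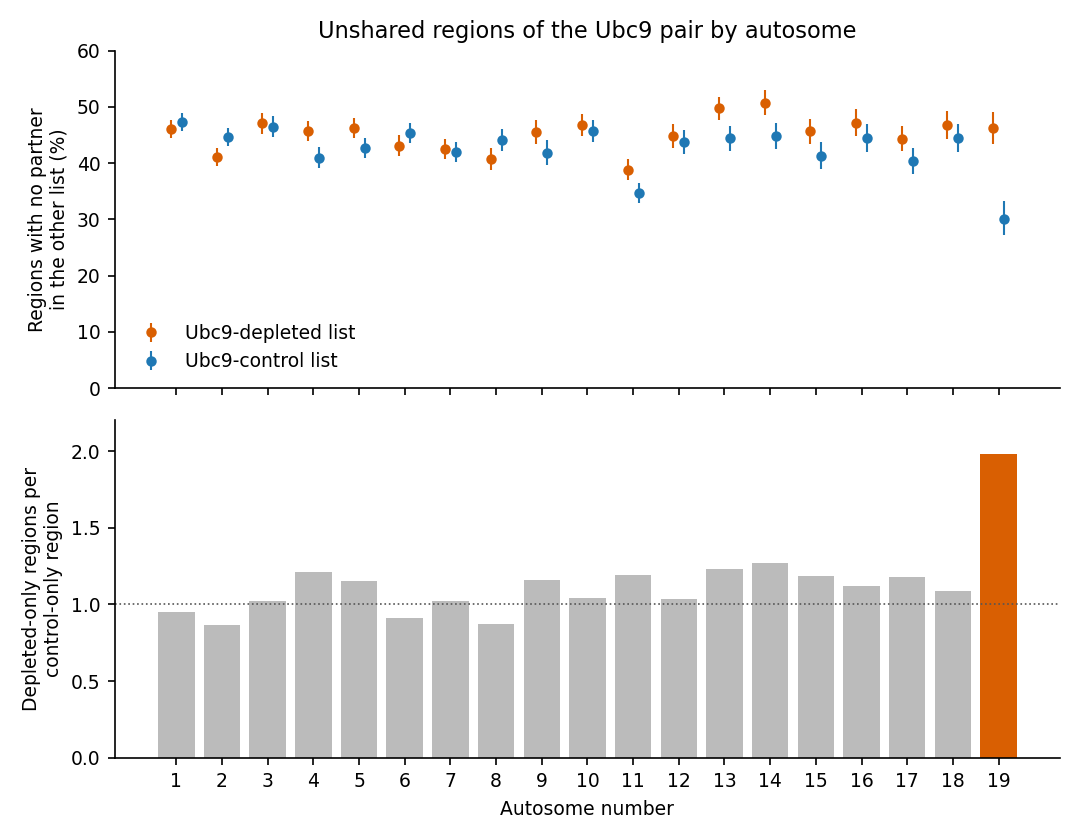
Percent of regions with no partner in the other Ubc9 list by autosome (top, exact 95% intervals for counting error) and the ratio of depleted-only to control-only regions (bottom, dotted line at 1). The control list is lowest on chromosome 19 at 30.1%, while the depleted list, at 46.3%, lies among the other autosomes.

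The H1 lists were used to ask which list of the pair departs. By share of regions, the control list lay just below the range of the other autosomes and the depleted list near its upper end. Chromosome 19 took 2.44% of the depleted list and 1.96% of the control list, against 2.21% of the H1 triple-knockout list and 2.24% of the H1 wild-type list. Divided by the mean of the H1 shares, this is 1.09 for the depleted list, the third highest of 19 autosomes (0.863 to 1.13 on the others, median 0.984). For the control list it is 0.882, the lowest (0.886 to 1.09 on the others, median 0.999). The control value is close to the 0.886 of chromosome 9 and no interval was computed. Both lists lay off the medians, in opposite directions, so these shares do not settle which list departs. The H1 lists themselves were balanced on chromosome 19, with 373 knockout-only and 343 wild-type-only regions, a ratio of 1.09. On other autosomes that ratio ran from 0.386 (chromosome 8) to 3.19 (chromosome 3), so the H1 lists are a less even reference on some of them. Others were as balanced as chromosome 19, such as chromosomes 7 (0.959) and 4 (1.05).

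Blocks open in both H1 lists were compared in the same way. Such a block is a run of overlapping regions with at least 1 from each H1 list, and chromosome 19 had 892 of them. The depleted list met 592 (66.4%) and the control list 684 (76.7%). Among the other autosomes the depleted list met 52.8% to 69.7%, and only chromosome 11 exceeded chromosome 19. The control list met 73.9% to 83.7%, and only chromosomes 14 and 6 were lower. The gap between the lists, control minus depleted, was 10.3 percentage points on chromosome 19 and 14.0 to 26.3 on the others. Blocks in the depleted but not the control list numbered 60 (6.73%, interval 5.17 to 8.57), the highest share of any autosome (2.70% to 4.57% on the others, 3.62% over all blocks). Blocks in the control but not the depleted list numbered 152 (17.0%, 14.6 to 19.7), the lowest share, although chromosome 11 was close at 17.2% (24.9% over all blocks).

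**Figure D2:**
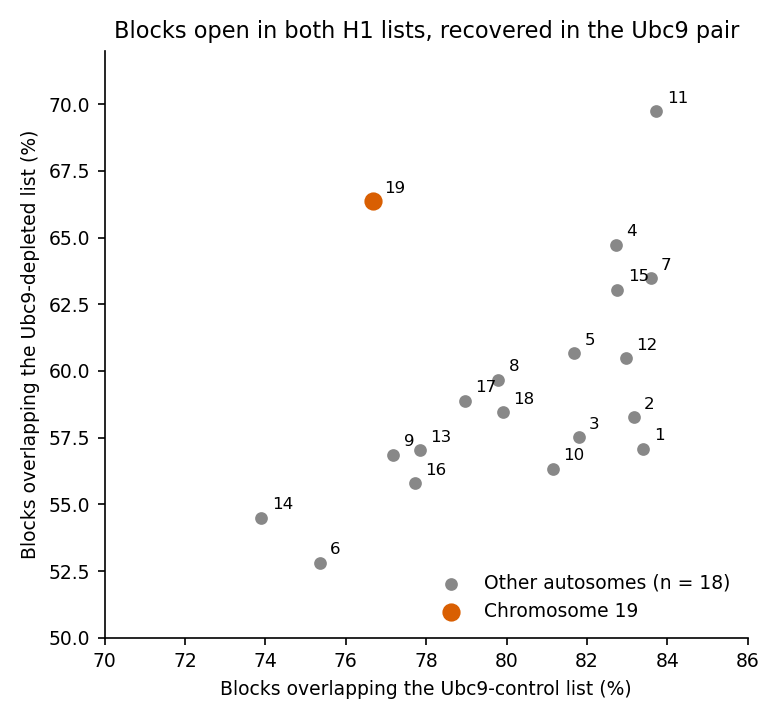
Percent of blocks open in both H1 lists that overlap the Ubc9-control list (x axis) and the Ubc9-depleted list (y axis), 1 point per autosome, with axes that do not start at 0. Chromosome 19 (76.7% and 66.4%) lies above and to the left of the band formed by the others.

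Unshared regions divided by their presence in the H1 lists. Of the 549 depleted-only regions, 111 (20.2%, interval 16.9 to 23.8) overlapped a region of either H1 list and 438 overlapped none. Of the 277 control-only regions, 213 (76.9%, 71.5 to 81.7) overlapped one and 64 did not. On the other autosomes together the shares were 16.4% of depleted-only and 76.1% of control-only regions. The division by H1 presence is therefore not particular to chromosome 19. Among regions also seen in an H1 list the ratio of depleted-only to control-only was 0.521, against 0.175 to 0.293 on the other autosomes. Among regions seen in no H1 list it was 6.84, against 2.93 to 5.39. Control-only regions were thus the more numerous among regions seen in an H1 list, and depleted-only regions outnumbered them only among regions seen in neither. Both ratios were the highest of the 19 autosomes, and both are parts of the ratio on which the chromosome was picked.

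Place in or near genes was compared next, since shared regions gather at gene ends, meaning within 1000 bp of where a protein-coding gene starts or stops in the annotation. At gene ends of chromosome 19, 65 of 360 depleted regions (18.1%, interval 14.2 to 22.4) and 24 of 319 control regions (7.52%, 4.88 to 11.0) had no partner, a ratio of 2.71 against 0.472 to 1.67 on the other autosomes. Inside genes there were 169 of 331 (51.1%) and 124 of 291 (42.6%), a ratio of 1.36 against 0.480 to 0.766. Outside genes there were 315 of 496 (63.5%) and 129 of 309 (41.7%), a ratio of 2.44 against 1.17 to 1.76. The ratio was thus the highest of the 19 autosomes in each of the 3 classes, and the control list's unshared share the lowest in each.

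By class, the lists did not differ from the H1 reference in the same way. At gene ends the control list met 93.8% of 308 H1 blocks, close to the 93.7% of the other autosomes together, and the depleted list 92.9% against 89.2%. Inside genes the control list met 66.8% of 286 blocks (interval 61.0 to 72.2) against 76.6%. Outside genes it met 68.5% of 298 (62.8 to 73.7) against 75.7%. Both were the lowest values of any autosome. The next lowest were 70.8% inside genes on chromosome 9 and 69.0% outside genes on chromosome 14, both within these intervals. The depleted list met 50.7% against 46.3% inside genes and 54.0% against 50.6% outside. Against the other autosomes together, the control list was therefore short of H1-type regions away from gene ends. The depleted list exceeded the level of the other autosomes together in all 3 classes, but its intervals inside (44.7 to 56.6) and outside genes (48.2 to 59.8) include their value. It was the highest autosome in none of the classes. The highest were 92.9% at gene ends on chromosome 4, and 55.9% inside and 59.9% outside genes on chromosome 11.

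**Figure D3:**
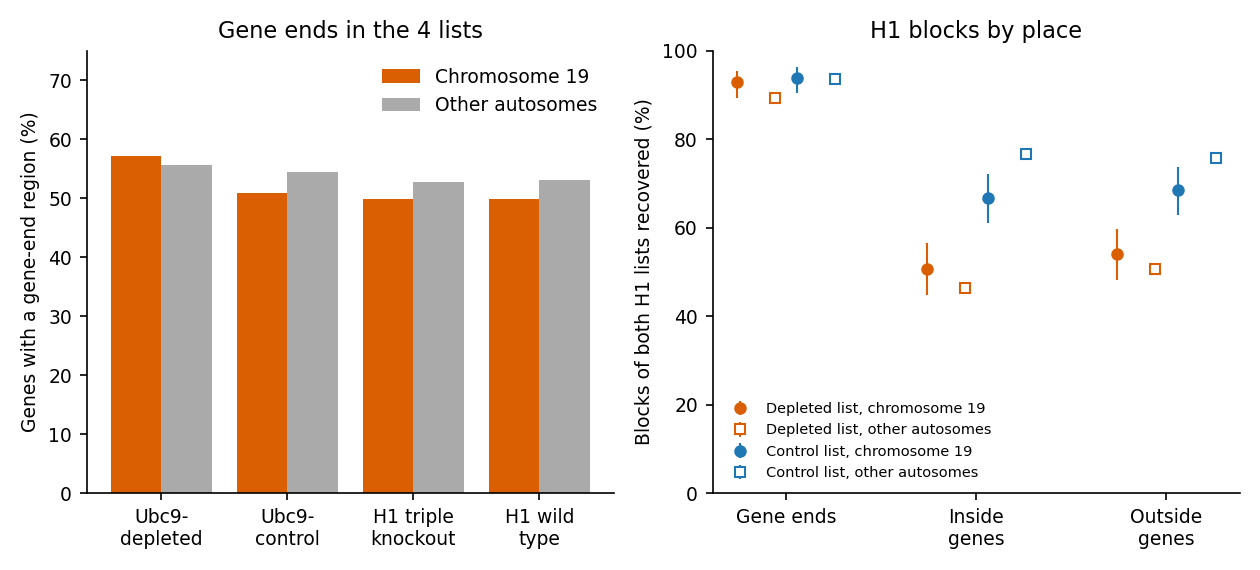
Left, percent of protein-coding genes with a region at a gene end in each list, for chromosome 19 and the other autosomes together. Right, percent of blocks open in both H1 lists that each Ubc9 list overlaps, by place, with exact 95% intervals for counting error. At gene ends the depleted list is the higher one on chromosome 19 (57.2% of genes), and away from them the control list is low (66.8% and 68.5% of blocks).

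The score of a region, the authors' own value from their peak caller, ranks regions within a list. Depleted-only regions of chromosome 19 had scores from 52.6 to 646 with a median of 99.6, and shared regions of that list 51.6 to 1159 with a median of 178. Control-only regions ran from 52.5 to 315 with a median of 90.0, and shared ones from 52.8 to 973 with a median of 150. Of depleted-only regions 39 (7.10%) were in the top 20% of their list by score, and of control-only regions 7 (2.53%). The corresponding shares on the other autosomes were 9.54% and 2.76%. Depleted-only regions were also the wider of the 2 classes, with a median of 376 bp against 295 bp. The same held on the other autosomes, with 394 bp against 294 bp.

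With each list split into 5 equal classes by score, the shortage of control-only regions held in all but the top class. From the lowest to the highest class, 62.6%, 44.2%, 26.6%, 14.7% and 4.58% of control regions on chromosome 19 had no partner, against 73.7%, 62.7%, 47.9%, 26.8% and 5.99% on the other autosomes. For depleted regions the values were 72.2%, 63.9%, 49.2%, 33.2% and 15.7%, against 63.5%, 54.7%, 47.8%, 37.4% and 21.3%. The depleted list thus lay above the other autosomes in its 2 lowest classes and below them in its highest. Only 7 of 153 control regions in the top class lacked a partner.

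**Figure D4:**
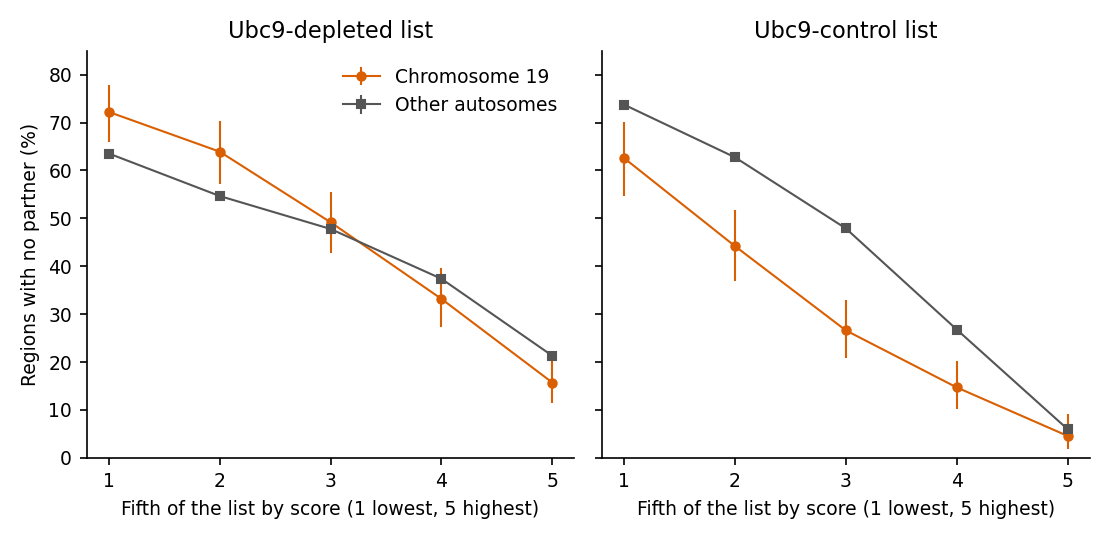
Percent of regions with no partner in the other Ubc9 list in 5 equal classes of the list's scores, for chromosome 19 and the other autosomes together, with exact 95% intervals for counting error. Control regions of chromosome 19 lie below the other autosomes in the 4 lower classes, and depleted regions above them in the 2 lowest.

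Shared regions differed as well, which the counts of unshared regions do not show. Regions with exactly 1 partner formed 634 pairs on chromosome 19, and each was ranked among the pairs of all autosomes, once by its depleted and once by its control score. The median rank was percentile 55.2 by the depleted and 41.1 by the control score, respectively the highest and the lowest of the 19 autosomes. The median difference was 9.52 percentile points, against -4.14 to 4.71 on the others, with chromosome 11 next. The depleted rank was the higher one in 425 of 634 pairs (67.0%), against 40.8% to 59.6%. In the 296 pairs at gene ends the median difference was 17.2 points (0.914 to 12.0 on other autosomes), and in the 338 pairs away from them 0.65 points (-10.1 to -2.26). Pairs were also wider in the depleted list, with a median of 536 bp against 446 bp, and 66.9% were wider there, against 45.9% to 63.5% on the other autosomes.

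Single genes show the size of these shifts, and these were picked from the ends of the ranking after their values were seen. The largest shift was at Slc22a29, of a multicopy family, with a score of 293 in the depleted list (percentile 75.3 of pairs) and 70.7 in the control list (percentile 3.84). Next was the region shared by the neighbours Sac3d1 and Snx15, with scores of 334 and 87.2 and percentiles 79.7 and 11.6. The region shared by Fau, which encodes a ribosomal protein, and Mrpl49, a mitochondrial ribosomal protein gene, scored 233 and 58.3, percentiles 66.6 and 0.40. In the other direction Calhm2 scored 75.5 and 151 (percentiles 9.81 and 41.4), Fam111a 191 and 357 (58.3 and 83.8), and the region that Chuk, a kinase of the NF-kB pathway, shares with Cwf19l1 scored 163 and 289 (50.8 and 75.7). Of 344 genes of chromosome 19 with a pair at a gene end, 294 ranked higher by the depleted score, and the median difference was 17.1 points.

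Along the chromosome the surplus was broad. In the windows of 10 Mb from the centromere side there were 105, 75, 73, 106, 99, 83 and 8 depleted-only regions and 33, 40, 38, 55, 56, 47 and 8 control-only regions. All 6 windows with at least 20 unshared regions had a ratio above the 1.06 of the other autosomes together, which held for 23.1% to 81.8% of such windows on the other autosomes. The ratio was highest, at 3.18, in the first 10 Mb and lay between 1.77 and 1.93 in the other 5. All 12 windows of 5 Mb with at least 20 unshared regions were also above 1.06. The rank shift of shared pairs was less even, with a median of 18.5 points in the first 10 Mb, 5.25 to 8.87 in the next 4 windows, -2.35 between 50 and 60 Mb and 7.53 in the last.

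Finer windows of 2 Mb picked out where the difference was largest. Between 38 and 40 Mb there were 37 depleted-only and 7 control-only regions, between 44 and 46 Mb 35 and 6, and between 8 and 10 Mb 28 and 5. The window from 48 to 50 Mb was the only one with fewer depleted-only than control-only regions, 7 and 9, and those from 54 to 56 Mb and from 60 Mb on were even, with 16 and 16 and 8 and 8.

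**Figure D5:**
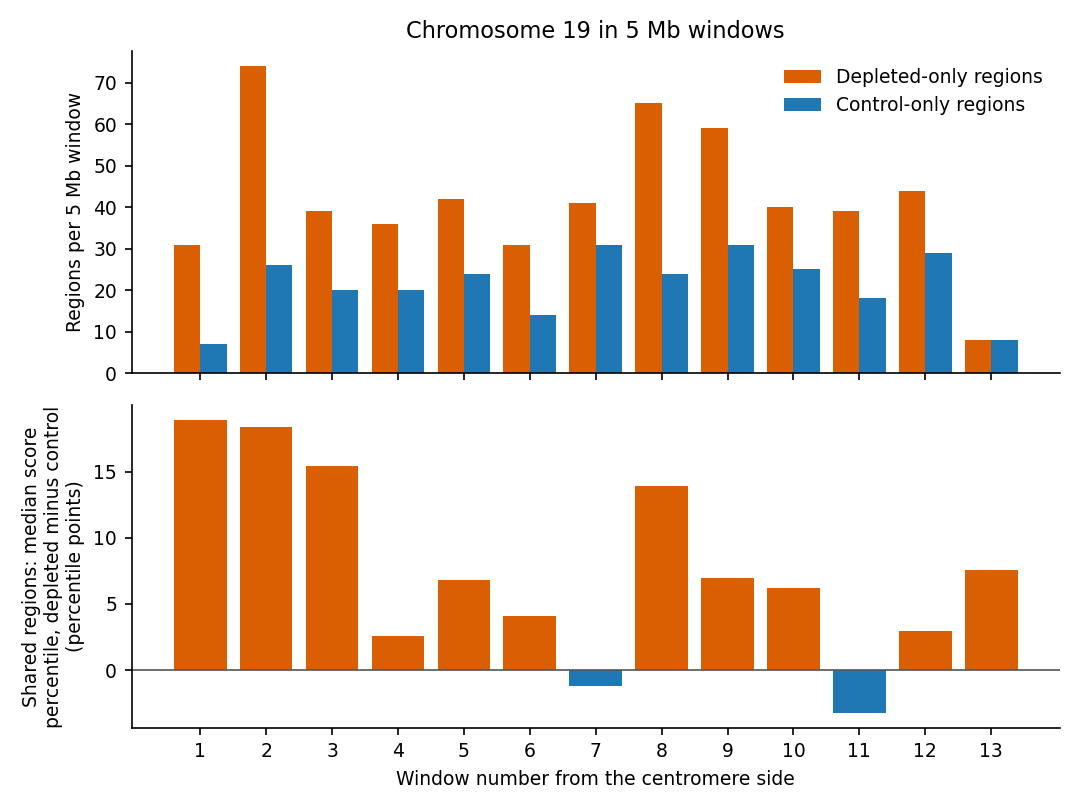
Top, depleted-only and control-only regions of chromosome 19 in windows of 5 Mb numbered from the centromere side. Bottom, median difference in score percentile of one-to-one shared regions, depleted minus control, in percentile points. Depleted-only regions outnumber control-only regions in the first 12 windows, and the first 3 have the largest rank shifts.

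Stretches in which depleted-only regions followed each other, with no shared or control-only region between them, were counted next. Chromosome 19 had 16 stretches of at least 5, 10 of which spanned no protein-coding gene. Together they held 136 regions (24.8% of its depleted-only regions, against 12.5% to 26.4% on the other autosomes). The longest had 21 regions, against 8 to 18 on the other autosomes. Stretches of at least 5 control-only regions numbered 0, against 4 to 36 on the other autosomes. Such counts depend on the numbers of depleted-only and control-only regions, on whose ratio the chromosome was picked. With 277 control-only regions, against 672 to 1728 on the other autosomes, they are not a separate trait.

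The longest stretch ran over the Cyp2c cluster, whose genes encode liver cytochromes that oxidise drugs and fatty acids. It spanned 568 kb, from 39248586 to 39816530, over Cyp2c29, Cyp2c39, Cyp2c38, Cyp2c67, Cyp2c68 and Cyp2c40. It held 21 regions with scores from 60.2 to 359, 4 of which overlapped an H1 region, and the control list had 0 regions there. Within 10 kb of the 15 Cyp2c genes the depleted list had 25 regions, 21 of them depleted-only, the control list 4 and each H1 list 9. A stretch of 14 regions, from 7680702 to 8250443, covered the organic ion transporter genes Slc22a19, Slc22a26, Slc22a27, Slc22a28 and Slc22a29, with 1 region also seen in the H1 lists. A stretch of 11, from 12898801 to 13771234, crossed 30 olfactory receptor genes, and one of 10, from 33850217 to 34161418, the lipase genes Lipf, Lipk, Lipn and Lipm with Ankrd22. Reads from near-identical copies in such clusters may not be told apart, and their placement is not described in the sources used here.

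Among the stretches without a gene, one of 10 regions, from 3036865 to 3247382, is the first on the chromosome from the centromere side, with scores up to 534 and 1 region also in an H1 list. Another of 10 lay from 35092057 to 35946514 (3 in an H1 list) and one of 9 from 54164380 to 54996686 (0 in an H1 list). Leaving out the 6 stretches of at least 10, with 76 regions, lowered the ratio on chromosome 19 from 1.98 to 1.71, still the highest of the autosomes.

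The highest-scoring unshared regions of the lists differed in their presence in the H1 cells. The 5 highest of the depleted list were at 54332093 to 54332732 (score 646, 283 kb from Adra2a), 57624530 to 57625239 (568, inside Atrnl1), 3036865 to 3037841 (534, 221 kb from Ighmbp2), 33440194 to 33441001 (520, 58.0 kb from Lipo4) and 40066026 to 40066848 (494, inside Cyp2c54). None of these 5 overlapped an H1 region. The 5 highest of the control list were at 55271307 to 55271779 (315, inside Acsl5), 13805445 to 13805884 (311, 8.76 kb from Olfr1499), 14785598 to 14786077 (290, 187 kb from Tle4), 49991616 to 49992141 (289, 151 kb from Sorcs1) and 53064341 to 53065011 (286, 25.7 kb from Xpnpep1). All 5 overlapped regions of both H1 lists.

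Gene ends were counted over the 705 protein-coding genes of chromosome 19. A region lay at a gene end of 57.2% of them in the depleted list, 50.9% in the control list and 49.9% in each H1 list, against 55.6%, 54.4%, 52.7% and 53.0% on the other autosomes. In all, 63 genes (8.94%) had one in the depleted list only and 19 (2.70%) in the control list only, beside 5.30% and 4.02% of the 21887 genes of the genome. The ratio of 3.32 was the highest of the autosomes, with chromosome 11 next at 2.21. Of the 63, 30 lay in the first 10 Mb, which holds 224 of the 705 genes. At 9 of the 63 and 3 of the 19 the region itself was shared and only crossed the window's edge in 1 list, which leaves 54 and 16. Of the 54, 38 had no gene-end region in either H1 list and 8 had one in both. Of the 16, 1 had none and 10 had one in both. These gene counts are not given for the other autosomes. Over all unshared regions there, 16.4% of depleted-only and 76.1% of control-only regions overlapped an H1 region, a contrast in the same direction.

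Edge cases aside, the following genes had the highest scores among those open at an end in depleted cells only. Cdc42bpg, a kinase bound by the GTPase Cdc42, had the highest score, 307, and Rce1, a protease that trims prenylated proteins, had 247. Rela, the p65 subunit of NF-kB, had 226 with its region at 5637232 to 5638118. Rad9a, part of the DNA damage checkpoint clamp, had 221, and Ndufb8, a subunit of respiratory complex I, 189. None of these 5 genes had a gene-end region in an H1 list. With a region in the control list only, Gm8978 (218), Plaat3 (141), Trub1 (140), Gstp2 (129), Dkk1 (98.5) and Gna14 (94.9) led, and all 6 had one in at least 1 H1 list.

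Chromatin and chromosome regulators had 8 of 30 members with a region in the depleted list only and 0 in the control list only, beside 63 and 19 of 705 for the chromosome. Of the 8, Kdm2a and Kmt5b, enzymes that act on histone methylation, and Kat5, a histone acetyltransferase, were edge cases whose region was shared. The other 5 were Rad9a, Pcgf5 (score 154), a Polycomb group protein, Dclre1a (144), a nuclease of crosslink repair, Pola2 (134), the accessory subunit of DNA polymerase alpha, and the nucleoplasmin-family protein Npm3 (117), of which Dclre1a, Pola2 and Npm3 are named after their values were seen. Pcgf5 and Dclre1a had a region in both H1 lists, and Npm3 had one in the knockout list and none in the H1 wild-type list. Of the 24 members with a shared pair at a gene end, 23 ranked higher by the depleted score, with a median difference of 20.5 points. Housekeeping and RNA-processing genes had 27 of 30 open in both lists and 2 in the depleted list only, Ndufb8 and the nucleotidase gene Nt5c2 (157), and 24 of 27 pairs ranked higher by the depleted score (median 16.3 points). Both medians are near the 17.1 points of all genes.

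For the lists that follow, the counts stand beside 8.94% depleted-only and 2.70% control-only over all 705 genes of the chromosome. Of 26 developmental transcription factors, 4 had a depleted-only gene end and 0 a control-only one. Rela and the forkhead genes Foxb2 (82.9) and Foxd4 (69.0) had unshared regions, and Fosl1 was an edge case. Signalling genes were even in these counts, at 3 and 3 of 24. By score they were not, since all 10 members with a shared pair at a gene end ranked higher by the depleted score. Their median difference was 36.0 points, against 17.1 over all genes. The medians were 28.9 points for neuronal (8 genes) and 27.1 for germline genes (2). They were 9.20 for developmental (12), 8.81 for interferon and immune (4) and 5.88 for retinoid and lipid genes (8). Of the signalling genes, Grk2 (157), a kinase of G protein-coupled receptors, the Wnt co-receptor Lrp5 (134) and the growth factor Vegfb (83.3) had a depleted-only gene end. None had one in the H1 lists. The Wnt antagonist Dkk1, the G protein subunit Gna14 and the adrenergic receptor Adra2a (62.5) had one in the control list only, and each had one in both H1 lists.

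Interferon and immune genes had 1 depleted-only member of 23, Trim8 (67.6), and 2 control-only members, the antiviral gene Ifit2 (88.2) and Unc93b1 (73.2), which escorts Toll-like receptors and whose region lay at 3935081 to 3935324. Both had regions in both H1 lists. Of 22 retinoid and lipid genes 0 were depleted-only and 1, the fatty acid desaturase Scd4 (75.2), was control-only. Germline genes had 2 of 6 in the depleted list only, Tdrd1 (81.3), of the piRNA pathway, and Majin (62.6), which ties telomeres to the nuclear envelope in meiosis, and 0 in the control list only. Neither had a region in an H1 list. Neuronal genes had 5 of 20 in the depleted list only and 1 of 20 in the control list only, beside 63 and 19 of 705. Ina (157), a neurofilament protein whose region is shared with Nt5c2, Syt12 (137) and the channel Kcnk18 (122) were among the 5, Crtac1 was an edge case, and so was the control-only Trpm3.

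Gene-end regions in the multicopy families were counted last. Olfr1495 (67.2) was the only 1 of 63 olfactory receptor genes with one, and only in the depleted list. Ms4a4a (136) and Ms4a4d (82.5) were the 2 of 21 Ms4a genes with a depleted-only region, and Cyp2c40 (162) the 1 of 15 Cyp2c genes. In the Gstp family, detoxifying transferases, Gstp3 (105) had a depleted-only and Gstp2 a control-only region, and since members of this family resemble each other, how reads were placed between them was not tested. Of 9 acid lipase genes 3 had a gene-end region in the depleted list and 4 in the control list, and the difference was Lipo1, an edge case.

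By the number of unshared regions within 10 kb, 234 of the 705 genes had more in the depleted list and 97 more in the control list. Such counts draw on the unshared regions on whose ratio the chromosome was picked and are not a separate trait. They are not given for the other autosomes. Cyp2c39 led with 6 against 0, then Ankrd22 and Cyp2c67 with 5 against 0, Pkd2l1, a channel gene, with 6 against 1, and Cyp2c38 with 4 against 0. Cyp2c38 lies within the 222 kb annotated for Cyp2c39, so its regions are counted for both genes. The Cyp2c genes named here all lie in the stretch of 21 regions described above and are not separate cases. Among the largest differences the other way were Ostf1 (0 against 4), the aminotransferase gene Got1 (0 against 3), the sphingomyelin synthase gene Sgms1 (1 against 4) and 1110059E24Rik (0 against 2). In all, 7 genes differed by 4 or more in favour of the depleted list, and 19 by 2 or more in favour of the control list, so the last names in each direction were taken by alphabet among ties. These 4 genes with more control-only regions had a shared region at a gene end. Of the first 5, Pkd2l1 alone had one, and the other 4 had no gene-end region in either list.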

How the data were processed

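ATAC-seq regions of 4 groups of 2 replicates were used as deposited. Per the submitters' processing notes, CASAVA 1.8.2, Bowtie2, Picard and MACS 1.4.2-1 were used with mm10. Settings, any shift of read ends for the transposase, and how replicates were combined are not given in the sources used here. The score in each list is the authors' deposited value per region, with a lowest value of 50.1 in the depleted and 50.3 in the control list, and served only to rank or filter within a list.

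Overlaps were computed in Python 3.11.15 with pandas 2.3.3 and numpy 2.4.6, and exact intervals with scipy 1.17.1. The overlap step was tested on simulated data. Genes came from the RefSeq table of GRCm38.p6. One-to-one shared regions (25374 pairs over the autosomes) were ranked within this set by each list's score. Named genes were up to 4 members per gene list and direction by score, the 6 highest-scoring genes in each direction, and the 5 largest and 5 smallest differences in unshared regions within 10 kb, with the 5 highest-scoring unshared regions per list and the 3 extreme windows of 2 Mb in each direction. The chromosome, the 14 gene lists and all rules were chosen with earlier results of these data known. Some genes that these rules name are not reported here. Alternatives changed the overlap, score minimum, number of regions, region width and gene window.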

Additional observations from a re-analysis of the deposited data

How the results depend on the processing

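The ratio of depleted-only to control-only regions on chromosome 19 was the highest of the 19 autosomes under all 9 alternatives, and 30 of 51 alternative values stayed within the interval (for counts of genes, within 1.5 times) of the reported one. The ratio changed direction under none of the 9 alternatives. The depleted unshared share did change sides against the other autosomes together. As reported it was above them, at 46.3% against 44.9%. It was below them when regions scoring below 100 were dropped from the counted list alone (34.7% against 36.9%). It was also below them without the 6 stretches, left out on chromosome 19 only (42.6% against 44.9%). Values that moved follow in the order depleted unshared share, control unshared share, H1 blocks met by the control list and by the depleted list. When regions scoring below 100 were dropped from the counted list alone, they were 34.7%, 17.0%, 80.4% and 69.7%, the ratio was 2.58, and 7 genes were control-only. With regions of 200 bp around each midpoint they were 50.5%, 36.1%, 65.8% and 54.2%. Without regions at gene ends they were 58.5%, 42.2%, 67.6% and 52.4%. The H1 blocks met were 63.0% and 54.5% when regions scoring below 100 left both lists, and 61.5% and 53.3% with the 30000 top-scoring regions of each list, a number set with the data known. With gene starts only, 38 genes were depleted-only and 13 control-only. Without the 6 stretches of at least 10 depleted-only regions, the unshared share of the depleted list was 42.6% and the ratio 1.71. Leaving out gene ends and leaving out stretches were chosen after seeing the data. No paired analysis was possible because each group has 1 list made from both replicates, and for the same reason no replicate could be left out. The overlap between lists does not enter the gene counts. The cause of these moves was not tested. Read depth is unknown, so its part in these counts was not tested.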
